A study of Rattus norvegicus with 38 samples.

Results

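Mitochondrial DNA encodes a small set of subunits of the respiratory chain and the ATP synthase. The mRNAs of 6 of them, which belong to complexes III, IV and V, were compared across cortical blood vessels and neurons of hypertensive and control rats. The 6 mRNAs were taken by their Ensembl identifiers from the deposited table, which holds 32883 identifiers (IDs). Mt-cyb (ENSRNOG00000031766) belongs to complex III. Mt-co1 (ENSRNOG00000034234), Mt-co2 (ENSRNOG00000030371) and Mt-co3 (ENSRNOG00000030700) belong to complex IV, and Mt-atp6 (ENSRNOG00000031979) and Mt-atp8 (ENSRNOG00000033299) to complex V. All 6 passed the filter on low counts in every fit. The rule that names them uses no measured value, though it was written with earlier results of these data known.

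Vessels and clusters of neurons were cut from the cortex by laser microdissection, and poly(A) RNA was counted near the 3' ends of transcripts (QuantSeq 3' FWD libraries made from PicoPure RNA). There were 8 groups and 38 libraries from 19 animals, with vessels and neurons of each. The SHRSP rats were late (aged 32 to 34 weeks, n = 5) or early (24 to 25 weeks, n = 5), and so were the Wistar rats (late, 32 to 34 weeks, n = 4; early, 24 to 25 weeks, n = 5). SHRSP is the stroke-prone spontaneously hypertensive rat, an inbred strain that develops high blood pressure without treatment, and Wistar is an outbred stock with normal blood pressure. Strain and blood pressure cannot be told apart. The labels' early and late stages of hypertension also differ in age, and no group was given a drug or carried a transgene. The number in a library's title was taken as its animal, which gave each animal 1 vessel and 1 neuron library. Whether vessels and neurons were pure could not be checked, because the table pairs no ID with a gene name, and 0 IDs matched the annotation at hand.

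The libraries held between 1198386 and 4963429 counts, and the lowest count of any of the 6 mRNAs was 950, for Mt-atp8 in the vessels of early SHRSP animal 377. That count is 589 counts per 1000000 counts of the library (CPM), with an exact binomial 95% interval of 552 to 628 CPM that covers counting error only. At 1198386 counts each, the vessel libraries of 7 animals, 4 early SHRSP and 3 early Wistar, held at most 6119.5 detected IDs, and those of the other 12 animals at least 8424.49. The set with more IDs, called the high-detection animals below, holds all 9 late animals, early SHRSP animal 383 and early Wistar animals 340 and 349, so stage and detection nearly coincide. ENSRNOG00000043866 alone took 6.45% to 40.6% of the counts of vessel libraries and 4.34% to 35.5% of those of neuron libraries. Levels are given with it in the total unless stated, and orders of groups and counts of animals that differ without it are given on both scales.

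In mitochondria the respiratory chain passes electrons to oxygen and pumps protons across the inner membrane, and the ATP synthase uses the return of those protons to make ATP. Mt-cyb, cytochrome b, is the subunit of complex III that carries the electron path through the membrane. Mt-co1, Mt-co2 and Mt-co3 form the core of cytochrome c oxidase: Mt-co1 holds the site where oxygen is reduced, Mt-co2 takes electrons from cytochrome c, and Mt-co3 completes the core. Mt-atp6 lines the proton channel of the ATP synthase, and Mt-atp8 is a small membrane subunit of the same enzyme. Their mRNAs are cut from long transcripts of the heavy strand and polyadenylated, and Mt-atp8 and Mt-atp6 share 1 mRNA on which their reading frames overlap. Neurons are known for a high demand for mitochondrial ATP, and the endothelium of brain vessels for holding more mitochondria than endothelium elsewhere.

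The first comparison asks how the mitochondrial mRNAs differ between the 2 materials of the same animal. The 6 mRNAs together took a larger share of the counts in the vessel library than in the neuron library in 19 of 19 animals, with or without ENSRNOG00000043866 in the total. Together they took 3.25% to 16.0% of the counts in vessels, with a median of 6.60%, and 2.10% to 7.10% in neurons, with a median of 3.76%. The ratio of vessels over neurons ran from 1.01 in early Wistar animal 349 to 3.23 in early Wistar animal 368, with a median of 1.90. It was above 1 in 7 of 7 animals with few IDs detected in vessels, with a median of 1.93, and in 12 of 12 high-detection animals, with a median of 1.86.

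**Figure D1:**
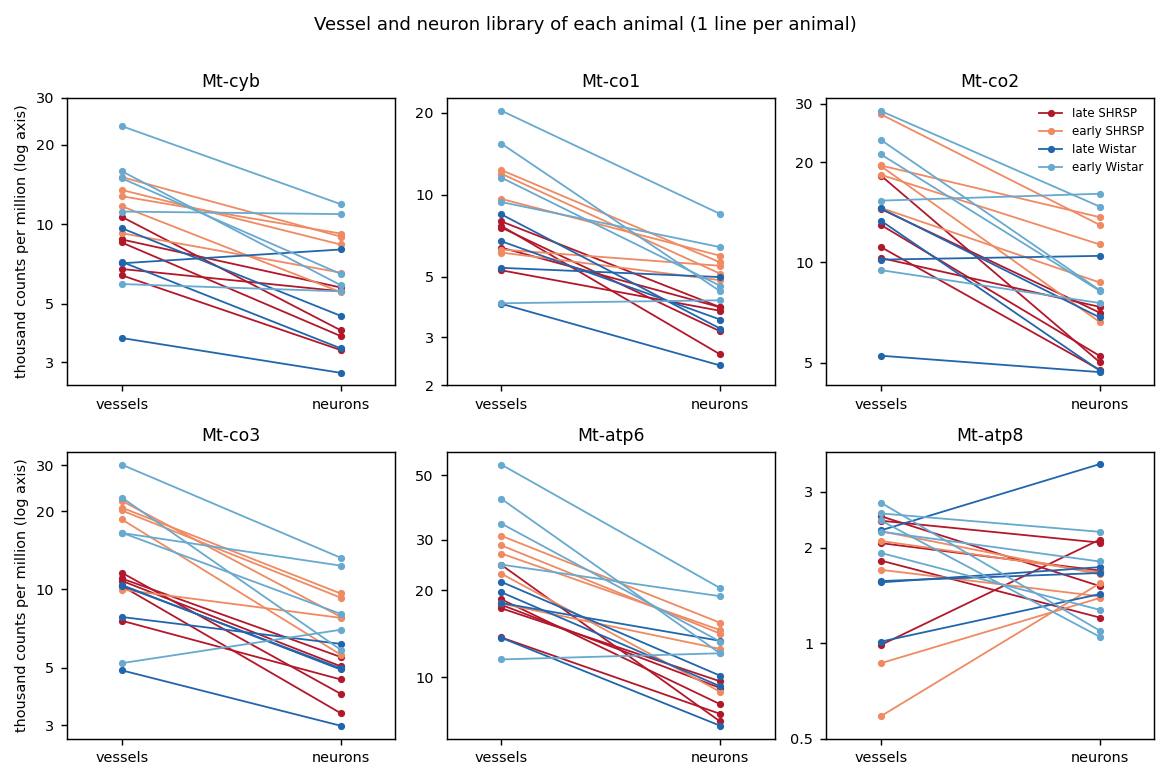
CPM (divided by 1000, log axis) of each of the 6 mRNAs in the vessel library and the neuron library of every animal, with 1 line per animal and 1 colour per group. Most lines fall towards neurons for Mt-cyb, Mt-co1, Mt-co2, Mt-co3 and Mt-atp6. These were higher in vessels in 17 or 18 of 19 animals with ENSRNOG00000043866 in the total, and in 18 or 19 without it. The lines of Mt-atp8 run both ways, with 12 of 19 higher in vessels, or 13 without that ID.

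In the fit across all IDs (edgeR's quasi-likelihood test with the animal as a block and Benjamini-Hochberg adjustment), 4 of the 6 mRNAs were called higher in vessels of late SHRSP animals, 5 in early SHRSP, 1 in late Wistar and 5 in early Wistar animals, and none was called lower. Of the 12117 IDs tested, 0.883% were called in late SHRSP (0.693% higher in vessels), 39.1% in early SHRSP (1.16% higher), 0.371% in late Wistar (0.33% higher) and 0.677% in early Wistar animals (0.305% higher). The median log2 fold of the 6 mRNAs was 0.91 in late SHRSP, 0.85 in early SHRSP, 0.57 in late Wistar and 1.02 in early Wistar animals, where that of all IDs was -0.46, -3.71, -0.36 and -1.65 in the same order. Other scalings moved these medians of all IDs by -0.21 to 0.41, and other fits moved them further. In early SHRSP animals the median of all IDs was -0.70 without the animal block, -2.35 with no filter on low counts and -0.31 among high-detection animals. With the library set as a term it was -3.15 in late SHRSP and -2.96 in late Wistar animals. Both materials share 1 estimate of the spread per ID in this fit, and in bulk material fewer cells of a type and less RNA per cell cannot be told apart.

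Mt-co3 shows the difference in every group. In late SHRSP animals it had 11596, 10311, 11015, 10792 and 7574 CPM in vessels and 3964, 3338, 5493, 5058 and 4501 CPM in neurons, listed in the same order of animals. In early SHRSP animals it had 20132, 18609.8, 20649, 9982 and 21936 CPM in vessels and 9295, 5609, 9646, 7770.1 and 7849.8 CPM in neurons. Vessels and neurons of SHRSP animals did not overlap at either stage, and how many of all IDs separated them in this way was not counted. In late Wistar animals it had 10397, 7828, 4878 and 10336 CPM in vessels and 4915, 6167, 2985 and 4968 CPM in neurons, and in early Wistar animals 16537, 16494, 30236, 5197 and 22581 CPM in vessels and 8051, 12343, 13244, 6987 and 5859 CPM in neurons. In Wistar animals the materials overlapped, and in early animal 349 Mt-co3 was lower in vessels, at 5197 CPM against 6987 CPM in neurons.

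With ENSRNOG00000043866 in the total, the order of the 8 groups was alike for 5 of the mRNAs. Mt-atp6, which took the most counts of the 6, had mean CPM ± SD (n = 5, and 4 in late Wistar groups) of 33242 ± 16340.0 in early Wistar vessels, 25450.2 ± 5093 in early SHRSP vessels, 18414 ± 3894 in late SHRSP vessels and 18229 ± 3306 in late Wistar vessels, then 15401 ± 4014 in early Wistar neurons, 13135 ± 2584 in early SHRSP neurons, 9910.3 ± 2715 in late Wistar neurons and 8296 ± 1124 in late SHRSP neurons. Mt-co2 came second, with 19982 ± 4868 in early SHRSP vessels, 19574 ± 7366 in early Wistar vessels, 13429 ± 3148 in late SHRSP vessels and 10967 ± 4094 in early Wistar neurons, then 10834 ± 4154 in late Wistar vessels, 10661 ± 2962 in early SHRSP neurons, 6677 ± 2717 in late Wistar neurons and 5884 ± 1225 in late SHRSP neurons. For Mt-cyb, Mt-co1, Mt-co2, Mt-co3 and Mt-atp6 the early vessel groups held the first 2 places, late SHRSP vessels the next, and late neurons the last 2. Mt-atp8 had another order, with 2391 ± 322 in early Wistar vessels, 2125 ± 1038 in late Wistar neurons, 1966 ± 614 in late SHRSP vessels and 1723 ± 386 in late SHRSP neurons, then 1602 ± 515 in late Wistar vessels, 1532 ± 133 in early SHRSP neurons, 1503 ± 743 in early SHRSP vessels and 1495 ± 517 in early Wistar neurons. Without ENSRNOG00000043866 in the total, late Wistar vessels, at 25283 ± 5513 CPM, stood above late SHRSP vessels, at 22989.7 ± 2644 CPM, for Mt-atp6. On that scale Mt-atp6 in late Wistar neurons, at 14564 ± 3041 CPM, also stood above early SHRSP neurons, at 14506 ± 2842 CPM, and Mt-atp8 was highest in late Wistar neurons, at 3189 ± 1674 CPM. Below it, Mt-atp8 ended with 1719 ± 686 in early Wistar neurons, 1702 ± 269 in early SHRSP neurons and 1675 ± 865 in early SHRSP vessels. For Mt-co2, early Wistar vessels (23517 ± 6742) then stood above early SHRSP vessels (21919 ± 4811). Late Wistar vessels (15062 ± 5968) stood above early Wistar neurons (12296 ± 4224). For Mt-co3, early Wistar vessels (21458 ± 9425) moved above early SHRSP vessels (19929 ± 4545). Its late Wistar vessels (11589 ± 3736) moved above early Wistar neurons (10474 ± 3520). For Mt-cyb, late Wistar vessels (9662 ± 3753) moved above early Wistar neurons (9149 ± 3166) and early SHRSP neurons (8504 ± 1568). For Mt-cyb, Mt-co1, Mt-co2 and Mt-co3, early vessels kept the first 2 places, late SHRSP vessels the next and late neurons the last 2. Of 42 pairs of neighbours in these orders, 36 lay closer than the larger of their SDs on either scale. With the ID in the total, the 6 wider gaps set late SHRSP vessels below early SHRSP vessels for Mt-cyb and Mt-atp6, and late Wistar neurons below early SHRSP neurons for Mt-co1, Mt-co2, Mt-co3 and Mt-atp6. Without it, the gap between neuron groups stayed wider than the SD for Mt-co3 alone of those 4, and that between vessel groups for Mt-cyb, joined by Mt-co2 and Mt-co3. The other 2 wide gaps on that scale were those of Mt-atp6, with late SHRSP vessels above early Wistar neurons and late SHRSP neurons below early SHRSP neurons. Among all IDs, Mt-atp6 ranked 3 in mean CPM in vessels and 4 in neurons, and Mt-atp8 ranked 24 and 35.

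The complex IV mRNAs and Mt-cyb moved by similar amounts. The log2 fold of Mt-co3, vessels minus neurons, was 1.04 (SE 0.15, adjusted p = 3.05e-08) in late SHRSP, 1.20 (SE 0.15, adjusted p = 1.72e-10) in early SHRSP, 0.63 (SE 0.16, adjusted p = 0.0473) in late Wistar and 1.02 (SE 0.15, adjusted p = 1.60e-07) in early Wistar animals. It is the only one of the 6 called in all 4 groups. Mt-co1 had log2 folds of 0.86 (SE 0.15, adjusted p = 1.52e-05), 0.75 (SE 0.16, adjusted p = 0.000184), 0.63 (SE 0.17, adjusted p = 0.0588) and 1.17 (SE 0.16, adjusted p = 1.93e-10) in the same order of groups. All were higher in vessels, and 3 of them passed the threshold. Mt-cyb, the complex III subunit, likewise passed the threshold in 3 groups, at 0.72 (SE 0.14, adjusted p = 0.000129), 0.73 (SE 0.14, adjusted p = 4.23e-05) and 0.94 (SE 0.14, adjusted p = 5.35e-08). Its late Wistar value, 0.44 (SE 0.16, adjusted p = 0.345), did not pass. Mt-co2 was as far apart in log2 fold but varied more: 1.02 (SE 0.27, adjusted p = 0.0902) in late SHRSP, 0.96 (SE 0.27, adjusted p = 0.0162) in early SHRSP, 0.51 (SE 0.30, adjusted p = 0.921) in late Wistar and 1.01 (SE 0.27, adjusted p = 0.0771) in early Wistar animals. Its early SHRSP value alone passed the threshold in this fit, and that call was lost without animal 374 or 377. Without early Wistar animal 343, Mt-co2 passed in late SHRSP animals, at 1.05 (SE 0.14, adjusted p = 1.22e-09). It then also passed in early Wistar animals, at 1.296 (SE 0.15, adjusted p = 2.77e-11). In late Wistar animals it passed in 0 of 29 alternatives. Why the spread narrowed without animal 343 was not tested.

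The counts assigned to the ATP synthase subunits moved apart, though Mt-atp6 and Mt-atp8 lie on 1 mRNA and no source used here says how reads over their overlap were split. Mt-atp6 was called higher in vessels of late SHRSP animals, at 0.97 (SE 0.17, adjusted p = 0.00103), of early SHRSP animals, at 0.99 (SE 0.17, adjusted p = 0.000267), and of early Wistar animals, at 1.16 (SE 0.18, adjusted p = 0.000161). In late Wistar animals it stood at 0.73 (SE 0.19, adjusted p = 0.112) and did not pass, though it did in 11 of 29 alternatives. The late SHRSP call of Mt-atp6 was lost on leaving out any of 6 of the 19 animals, and it held in 22 of 29 alternatives. Mt-atp8 passed the threshold in early Wistar animals alone, at 0.92 (SE 0.25, adjusted p = 0.0470), and had log2 folds of -0.0017 (SE 0.26, adjusted p = 1), -0.16 (SE 0.26, adjusted p = 0.618) and -0.53 (SE 0.28, adjusted p = 0.810) in late SHRSP, early SHRSP and late Wistar animals. Its level was higher in vessels in 12 of 19 animals, including 5 of 5 early Wistar animals and 0 of 4 late Wistar animals. Without ENSRNOG00000043866 in the total it was higher in 13 of 19, including 1 of 4 late Wistar animals. The early Wistar call of Mt-atp8 was lost on leaving out any of 11 of the 19 animals, and over 29 alternatives it passed in 12, with adjusted p from 0.000659 to 0.361.

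These calls rest in part on the choice of fit. Without the animal block 1 of the 6 was called in late SHRSP, 4 in early SHRSP, 0 in late Wistar and 3 in early Wistar animals, where 2.31%, 22.5%, 0.47% and 2.44% of IDs were called. DESeq2 called 0, 5, 0 and 6 of them, where 6.4%, 56.1%, 1.92% and 25.5% of IDs were called. Among the high-detection animals alone, a setting chosen after seeing the data, 5 were called in late SHRSP and 3 in late Wistar animals, 2 in early Wistar, with 2 animals left, and 0 in early SHRSP, with 1 animal left. The shares of IDs called there were 9.51%, 5.92%, 1.14% and 2.84%, in that order. There the log2 fold of Mt-co3 was 1.06 (adjusted p = 4.35e-07) in late SHRSP, 0.11 (adjusted p = 1) in early SHRSP, 0.61 (adjusted p = 0.0329) in late Wistar and 0.63 (adjusted p = 0.438) in early Wistar animals. Without animal 377 the counts were 1 in late SHRSP and 3 in early SHRSP animals, with 1.58% and 19.5% of IDs called. Without animal 374 the late SHRSP count was 2, with 1.13% of IDs called. The late Wistar call of Mt-co3 was lost on leaving out any of 14 of the 19 animals. Detection of IDs and the share of ENSRNOG00000043866 move with material and group, and their part in the difference was not tested. The sum of the 6 was higher in vessels in every high-detection animal.

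Whether the difference between materials itself changed with stage or strain was tested over the same libraries. For late minus early, averaged over strains, 0 of the 6 were called, with 0.0413% of IDs called, and 1 of the 6 and 2948 IDs had an unadjusted p under 0.05. DESeq2 called 0 of the 6 and 29% of IDs. With the 3 early high-detection animals left out, or animal 349 or 383 alone, 2 of the 6 were called lower, where 23.3%, 7.52% and 11.4% of IDs were called, nearly all higher. For SHRSP minus Wistar, averaged over stages, 0 of the 6 were called, with 0% of IDs called and 0 of the 6 at an unadjusted p under 0.05. Such a p was found for 686 IDs, and DESeq2 called 0 of the 6 and 320 IDs.

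**Figure D2:**
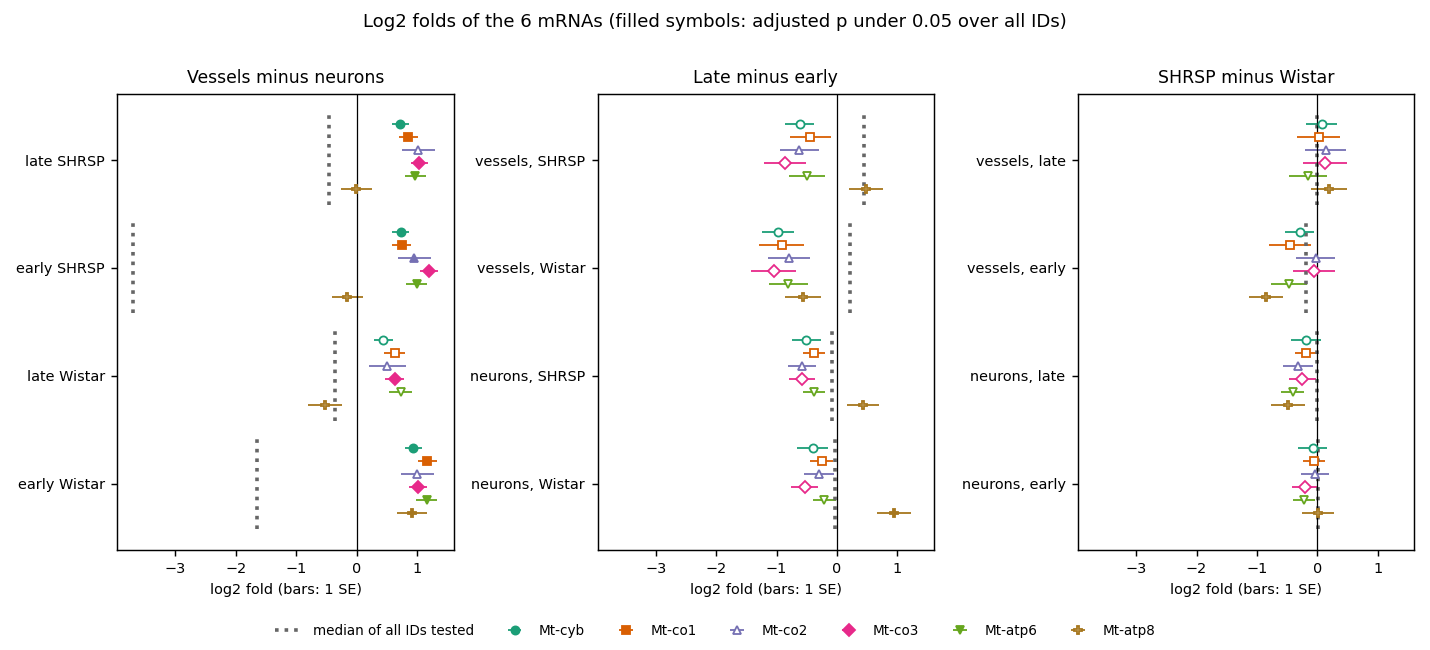
Log2 folds of the 6 mRNAs from the fits across all IDs, with bars of 1 SE, for vessels minus neurons in each group, late minus early in each material and strain, and SHRSP minus Wistar in each material and stage. Filled symbols passed an adjusted p of 0.05. Dotted lines mark the median of all IDs tested, with 15 filled symbols in the panel of materials and 1, Mt-atp8 in Wistar neurons, in the panel of stages.

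The second comparison sets the late against the early stage within a strain and a material. In neurons, 5 of the 6 mRNAs stood lower late than early in both strains, with Mt-atp8 the exception. Of these 12 differences 1 passed the test: the counts assigned to Mt-atp8 were higher in late Wistar neurons. Mt-atp6, which lies on the same mRNA, stood lower there, at a log2 fold of -0.21. The split of reads between them is uncertain, so the call is not read as a rise of that mRNA. In vessels 0 of the 6 passed in either strain. Over all IDs tested, 8.85% were called in SHRSP neurons, 9.31% in Wistar neurons and 0.00908% in the vessels of each strain.

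Mt-co1 and Mt-co3 separated the stages in SHRSP neurons with all counts in the total. Mt-co1 had 3152, 2595, 3863, 3867 and 3749.8 CPM in late and 5648, 5485, 5973, 4858 and 5131 CPM in early SHRSP neurons. Every late library was below every early one, also without ENSRNOG00000043866 in the total, where the ranges were 3542 to 5153 CPM late and 5437 to 6312 CPM early. Mt-co3, whose neuron values are given above, ranged over 3338 to 5493 CPM in late and 5609 to 9646 CPM in early SHRSP neurons, which did not overlap. Without that ID in the total they did. The other 4 overlapped, and how many of all IDs separated the stages in this way was not counted. Mt-cyb ranged over 3342 to 5761 CPM late and 5536 to 9213 CPM early. In the same order, Mt-co2 ranged over 4754 to 7352 and 6617 to 13683 CPM, Mt-atp6 over 7038 to 9693 and 8917 to 15457 CPM, and Mt-atp8 over 1205 to 2122 and 1389 to 1674 CPM.

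In the fit the differences in SHRSP neurons did not pass the threshold, where 8.85% of the 10833 IDs tested were called: 0 of the 6 were called by edgeR and 0 by DESeq2, and 5 had an unadjusted p under 0.05. The log2 folds, late minus early, were -0.58 (SE 0.21, adjusted p = 0.0819) for Mt-co3, -0.58 (SE 0.23, adjusted p = 0.114) for Mt-co2, -0.51 (SE 0.24, adjusted p = 0.177) for Mt-cyb, -0.39 (SE 0.18, adjusted p = 0.178) for Mt-atp6 and -0.38 (SE 0.18, adjusted p = 0.180) for Mt-co1. Mt-atp8 stood the other way, at 0.44 (SE 0.27, adjusted p = 0.305). The median of the 6 was -0.45, and that of all IDs -0.080.

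In Wistar neurons the lower values were spread more widely. Mt-co1 had 3483, 4987, 2363 and 3227 CPM in late and 4634, 6423, 8504, 4098 and 4423 CPM in early Wistar neurons, and the groups overlapped. The log2 folds were -0.54 (SE 0.23, adjusted p = 0.125) for Mt-co3, -0.40 (SE 0.26, adjusted p = 0.319) for Mt-cyb, -0.30 (SE 0.25, adjusted p = 0.459) for Mt-co2, -0.26 (SE 0.19, adjusted p = 0.410) for Mt-co1 and -0.21 (SE 0.19, adjusted p = 0.518) for Mt-atp6. Mt-atp8 had 3669.9, 1737, 1429 and 1665 CPM in late and 1275, 1048, 2246, 1810.4 and 1096 CPM in early Wistar neurons. Late animal 350 stood far above the rest, and the other 3 late values lay within the early range, as did 2 of them without ENSRNOG00000043866 in the total. The log2 fold of Mt-atp8 was 0.94 (SE 0.28, adjusted p = 0.0382), where 9.31% of IDs were called and 5.84% were higher late, and DESeq2 made the same 1 call.

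That call was lost when animal 350 was left out, at a log2 fold of 0.50 (adjusted p = 0.237), and when animal 340, 343, 353, 354 or 368 was, with adjusted p from 0.0554 to 0.0942. It was also lost with the library set as a term, at 0.78 (adjusted p = 0.377), and among high-detection animals, at 0.81 (adjusted p = 0.337). With only the late and early SHRSP neurons in the fit, 3 of the 6 were called lower late, where 20.5% of IDs were called. On plain library totals, with no further scaling, the calls in neurons were others: 5 of the 6, all but Mt-atp8, were called lower late in SHRSP and in Wistar neurons, with log2 folds of -0.85 and -0.97 for Mt-co3. There 15.8% and 27.7% of IDs were called, and the median of all IDs was also shifted, by -0.27 in SHRSP and -0.44 in Wistar neurons. With ENSRNOG00000043866 left out of those totals, 0 of the 6 were called in SHRSP neurons and 1, Mt-atp8, in Wistar neurons. That ID took 20.4% to 26.7% of the counts in late and 5.37% to 21.8% in early SHRSP neurons, and 24.3% to 35.5% in late and 4.34% to 24.6% in early Wistar neurons. Its part in the lower CPM of the 6 beyond these totals was not tested.

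**Figure D3:**
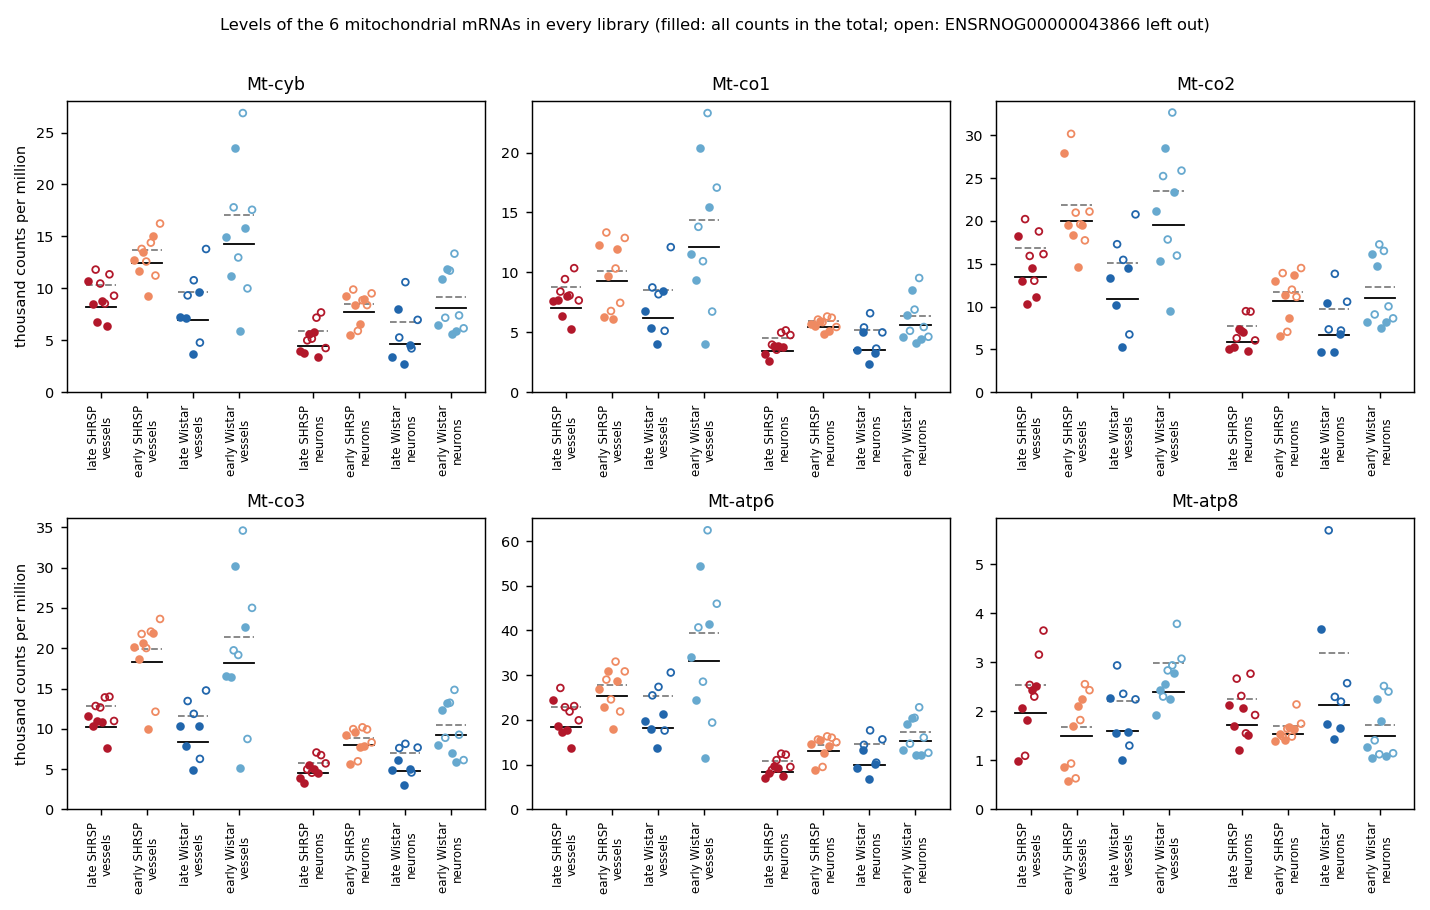
CPM (divided by 1000) of the 6 mRNAs in every library, by group, with vessels on the left and neurons on the right of each panel. Filled points and solid mean lines use all counts, and open points and dashed mean lines leave ENSRNOG00000043866 out of the total. The 5 late SHRSP neuron points of Mt-co1 lie below the 5 early ones on both scales, and 1 late Wistar neuron point of Mt-atp8, at 3670 CPM, stands apart.

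In vessels the late values stood lower for most members, with wide spreads. Mt-cyb had 10657, 8522, 6766, 8751 and 6405 CPM in late and 12752, 11686, 13466, 9241 and 15066 CPM in early SHRSP vessels, and 7199, 7109, 3709.9 and 9649 CPM in late and 14902, 11156, 23479, 5935 and 15853 CPM in early Wistar vessels. The stages overlapped in both strains. Early animal 383 fell within the late SHRSP range and early animal 349 within the late Wistar range, and both are high-detection animals. Early Wistar animal 340, also a high-detection animal, stood above the late Wistar range, at 14902 CPM. Of the 11011 IDs tested, 0.00908% were called in each strain, and 0 of the 6. In SHRSP vessels 2 of the 6 had an unadjusted p under 0.05 and DESeq2 called 0. The log2 folds were -0.86 (SE 0.35, adjusted p = 0.247) for Mt-co3, -0.63 (SE 0.32, adjusted p = 0.435) for Mt-co2, -0.62 (SE 0.24, adjusted p = 0.204) for Mt-cyb, -0.49 (SE 0.29, adjusted p = 0.550) for Mt-atp6, -0.44 (SE 0.34, adjusted p = 0.690) for Mt-co1 and 0.48 (SE 0.28, adjusted p = 0.481) for Mt-atp8.

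In Wistar vessels 5 of the 6 had an unadjusted p under 0.05 and DESeq2 called 0. The log2 folds were -1.05 (SE 0.37, adjusted p = 0.739) for Mt-co3, -0.98 (SE 0.26, adjusted p = 0.718) for Mt-cyb, -0.91 (SE 0.37, adjusted p = 0.995) for Mt-co1, -0.80 (SE 0.32, adjusted p = 0.936) for Mt-atp6, -0.80 (SE 0.35, adjusted p = 1) for Mt-co2 and -0.57 (SE 0.30, adjusted p = 1) for Mt-atp8, all lower late. The median of the 6 was -0.56 in SHRSP and -0.86 in Wistar vessels, and that of all IDs 0.45 and 0.21. In 5 of the 8 other fits of Wistar vessels that keep every animal, 1 to 3 of the 6 were called lower, as were 1 or 2 without animal 343, 349 or 354. The shares of all IDs called in those fits are not given here, so these counts are not compared with them.

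The stage difference could not be separated from detection. With the 3 early high-detection animals left out, 2 of the 6 were called lower in late SHRSP vessels, Mt-co3 at -1.04 (adjusted p = 0.00351) and Mt-cyb at -0.73 (adjusted p = 0.0324), and 1 in late Wistar vessels, Mt-co3 at -1.35 (adjusted p = 0.000515). Of all IDs, 18.2% were then called in SHRSP vessels, 0.631% lower, and 0.0355% in Wistar vessels. Among high-detection animals alone, which leaves 1 early SHRSP and 2 early Wistar animals, 0 of the 6 were called in either strain or material, where 0.122% of IDs were called in SHRSP and 0% in Wistar vessels, and 0.0252% in SHRSP and 0.0419% in Wistar neurons. There 4 of the 6 turned higher in late SHRSP vessels, with log2 folds of 0.33 for Mt-co1, 0.18 for Mt-co3, 0.17 for Mt-atp6 and 0.021 for Mt-co2. All 6 stayed lower in late Wistar vessels, from -0.64 for Mt-cyb to -0.37 for Mt-atp6. In neurons of high-detection animals Mt-co3 stood at -0.73 in SHRSP and -0.30 in Wistar, and Mt-co1 at -0.42 and 0.041. Stage, age and detection cannot be told apart in these libraries.

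The third comparison, SHRSP against Wistar within a stage and a material, found no member past the threshold in any of its 4 fits. In early vessels 0.254% of IDs were called, in late vessels 0%, in early neurons 0.222% and in late neurons 0.0369%. In each, 0 of the 6 were called by edgeR and by DESeq2, and 1, 0, 0 and 1 of the 6 had an unadjusted p under 0.05. In late vessels, where edgeR called 0 IDs, 102 had an unadjusted p under 0.05 and DESeq2 called 11.

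Mt-atp8 in early vessels lay furthest apart. It had 865, 589, 1704, 2102 and 2256 CPM in early SHRSP and 1926, 2438, 2566, 2248 and 2774 CPM in early Wistar vessels, so 3 of 5 SHRSP libraries were below every Wistar library and the groups overlapped. The log2 fold was -0.85 (SE 0.28, adjusted p = 0.125). In late SHRSP vessels it had 988, 2069, 1822, 2434 and 2515 CPM, against 2269, 1555, 1012 and 1571 CPM in late Wistar vessels. These groups overlapped as well, at a log2 fold of 0.19 (SE 0.30, adjusted p = 0.999965). In early vessels Mt-atp8 was called without animal 383, at -0.98 (adjusted p = 0.0373), where 10.5% of IDs were called. Without animal 349 it was Mt-co1, at -0.70 (adjusted p = 0.0276), where 0.5% of IDs were called.

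The other 5 were closer. Their log2 folds in early vessels were -0.29 for Mt-cyb, -0.45 for Mt-co1, -0.030 for Mt-co2, -0.057 for Mt-co3 and -0.47 for Mt-atp6, and in late vessels 0.068 for Mt-cyb, 0.018 for Mt-co1, 0.14 for Mt-co2, 0.13 for Mt-co3 and -0.16 for Mt-atp6, with SE from 0.24 to 0.37. In early neurons the log2 folds were -0.079 for Mt-cyb, -0.055 for Mt-co1, -0.041 for Mt-co2, -0.21 for Mt-co3, -0.23 for Mt-atp6 and 0.016 for Mt-atp8. In late neurons all 6 stood lower in SHRSP, with -0.19 for Mt-cyb, -0.18 for Mt-co1, -0.32 for Mt-co2, -0.25 for Mt-co3, -0.41 for Mt-atp6 and -0.49 for Mt-atp8, and SE from 0.18 to 0.28 over both stages. Among high-detection animals 5 of the 6 neuron values of the early stage, with 1 SHRSP and 2 Wistar animals, changed sign, and none passed. Whether the strain difference changed with stage was also tested, and 0 of the 6 were called by edgeR and by DESeq2 in vessels, where 0.00908% of IDs were called and 1 of the 6 had an unadjusted p under 0.05, or in neurons, where 0% of IDs were called, 0 of the 6 and 254 IDs had such a p and DESeq2 called 0 IDs.

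Within the sum of the 6, group means varied most for Mt-atp8 relative to their size. Group means of Mt-cyb lay between 13.1% and 16.6% of the counts of the 6. Group means of Mt-co1 lay between 10.5% and 12.2% and those of Mt-co2 between 20.2% and 23.1%. For Mt-co3 they lay between 15.1% and 20.8%, and of Mt-atp6 between 28.2% and 35.9%. Those of Mt-atp8 ran from 1.83% in early SHRSP vessels to 7.11% in late Wistar neurons. Shares also differed with detection. Mt-atp8 took a mean of 1.80% in vessels of the 7 animals with few IDs detected and 3.43% in the 12 high-detection animals. In neurons it took 2.97% and 5.95%. Mt-co3 took 20.8% and 16.4% in vessels, and 17.3% and 16.3% in neurons, in the same order. The part of detection in the make-up was not tested. Counts near 3' ends carry no correction for length or priming, so shares are compared between libraries and not between mRNAs.

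The ratio of Mt-atp8 to Mt-atp6 counts, which needs no library total, was lower in vessels than in neurons in 17 of 19 animals, with a median of 0.0788 in vessels and 0.133 in neurons. In late SHRSP animals it was 0.0403, 0.111, 0.105, 0.137 and 0.183 in vessels and 0.301, 0.210, 0.124, 0.226 and 0.203 in neurons. In early SHRSP animals it was 0.0323, 0.0258, 0.0551, 0.117 and 0.0788 in vessels and 0.0952, 0.173, 0.0910, 0.133 and 0.116 in neurons. The 2 materials overlapped in both stages, with the highest values in late neurons. In late Wistar animals it was 0.115, 0.0860, 0.0738 and 0.0733 in vessels and 0.394, 0.130, 0.210 and 0.164 in neurons, which did not overlap. In early Wistar animals it was 0.0565, 0.0992, 0.0471, 0.195 and 0.0668 in vessels and 0.0958, 0.0549, 0.1102, 0.149 and 0.0905 in neurons, which overlapped. By contrast, the ratio of Mt-co3 to Mt-co1 was lower in vessels in 7 of 19 animals, that of Mt-co2 to Mt-co1 in 11, that of Mt-atp6 to Mt-co1 in 8 and that of Mt-cyb to Mt-co1 in 13. These ratios are descriptions with no test. Both proteins are read from 1 mRNA, so the split between Mt-atp8 and Mt-atp6 is uncertain.

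**Figure D4:**
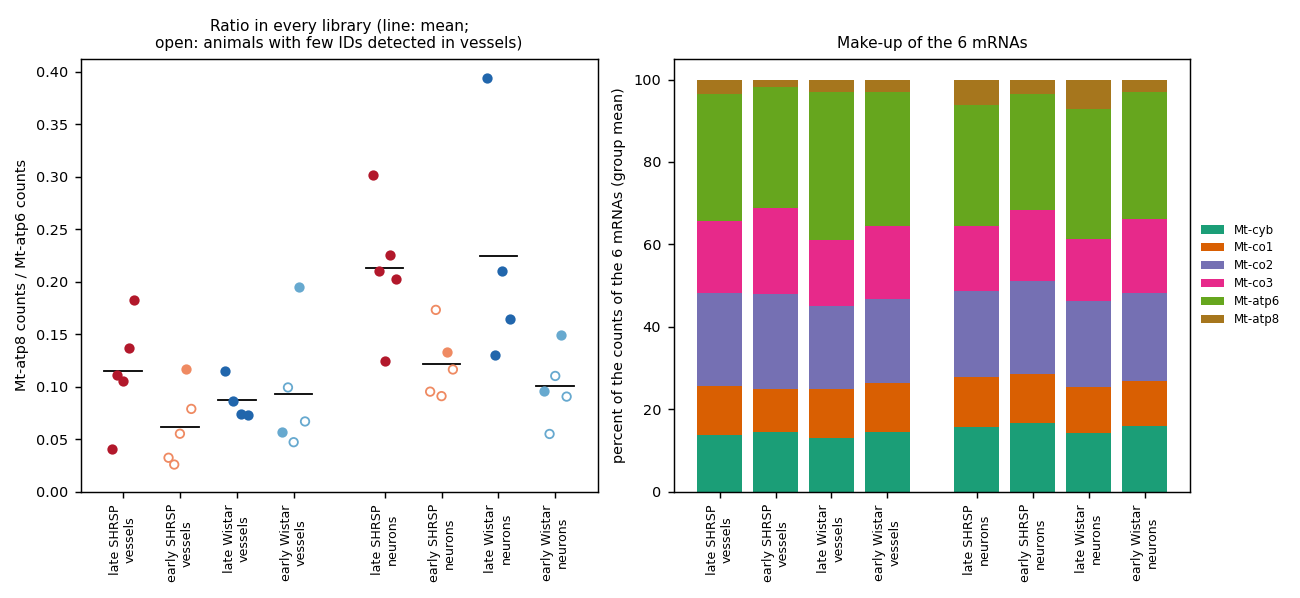
Left, the ratio of Mt-atp8 to Mt-atp6 counts in every library by group, with the group mean as a line and open points for animals with few IDs detected in vessels; right, the mean percent of the counts of the 6 mRNAs taken by each. The median of the neuron ratios, 0.133, stands above that of the vessel ratios, 0.0788, though their ranges overlap. The band of Mt-atp8 is widest in late neurons.

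To see which IDs moved most like the 6 across animals, each abundant ID was correlated with the mean log2 CPM of the 6 over the 19 libraries of a material. In vessels the closest IDs outside the 6, of 2924 compared, were ENSRNOG00000033615 (Pearson r = 0.87, Spearman rho = 0.82) and ENSRNOG00000030644 (r = 0.86, rho = 0.68). In neurons the same pair came first of 4668, with ENSRNOG00000030644 at r = 0.91 (rho = 0.89) and ENSRNOG00000033615 at r = 0.83 (rho = 0.78). Among the 12 high-detection animals r was 0.90 and 0.73 in vessels and 0.88 and 0.80 in neurons, in the order named, and among the 7 others 0.79 and 0.90 in vessels and 0.95 and 0.91 in neurons. Of the 6 themselves, 5 followed their own mean closely, with r from 0.87 for Mt-co2 to 0.96 for Mt-co1 in vessels and from 0.89 for Mt-co2 to 0.95 for Mt-atp6 in neurons. Mt-atp8 did not, at r = 0.34 in vessels and 0.056 in neurons, though it came closer among the 7 animals with few IDs detected, at 0.78 and 0.52, than among the 12 high-detection animals, at 0.41 and 0.23. All these values share libraries and library totals, each of the 6 is part of the mean it is set against, and no test was made.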

How the data were processed

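Vessel and neuron libraries of 19 rats were analysed from 1 deposited table of raw counts per Ensembl ID; per the submitters' processing notes the authors' tools were STAR 2.5.3a, HTSeq 0.6.1, FastQC 0.11.5 and DESeq2 1.18.1. Neither the notes nor the labels used here state a strand setting, an annotation or a genome build. Every column was matched to a sample by its title, and 0 were left over. CPM was computed over all counts of a library, or over all but ENSRNOG00000043866. Tests used edgeR 4.0.16 in R 4.3.3 (TMM scaling, its default filter on low counts, quasi-likelihood F test, Benjamini-Hochberg adjustment over all IDs, threshold 0.05); SE is the log2 fold over the root of F. Strain and stage were fitted over the 19 libraries of a material, and vessels against neurons over all 38 with the animal as a block. That pairing comes from the animal number in the titles; deviations of same-numbered libraries correlated between -0.226 and 0.401, with a median of 0.042. DESeq2 1.42.0, other scalings, no filter, the library set as a term and leaving out each animal were alternatives. The fits were also run on simulated counts with known changes in some IDs. Those counts held no animal effect and no shift of all IDs between materials, so they do not check the fits under such a shift. No pair of libraries in a group agreed within sampling noise, the closest of 72 pairs having a chi-square of 4.88 per degree of freedom.

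The library set splits animals at the largest gap in IDs detected in the vessel library at 1198386 counts. Likeness was Pearson's r of log2(CPM + 1) with the mean of the 6 for the IDs whose mean log2 CPM reached 5, and the first 2 IDs outside the 6 in each material were named. All 6 members were named in every comparison. Lists of nuclear subunits, other mitochondrial mRNAs and cell type markers could not be applied, since 0 IDs matched the annotation by ID. The members and lists were chosen with earlier results of these data known.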

Additional observations from a re-analysis of the deposited data

Results flagged for a closer look

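A sample far from the others of its group was found in 2 of the 48 combinations of mRNA and group, where chance gives about 1 in 20. Mt-co3 had 9982 CPM in the vessels of early SHRSP animal 383, below the next value of 18609.8 CPM, and this animal is the 1 early SHRSP animal of the high-detection set. Mt-atp8 had 3670 CPM in the neurons of late Wistar animal 350, above the next value of 1737 CPM, and ENSRNOG00000043866 took 35.5% of the counts of that library. The part of detection or of that ID in these values was not tested.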

How the results depend on the processing

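The higher level of Mt-cyb, Mt-co1, Mt-co2, Mt-co3 and Mt-atp6 in vessels kept its direction in all 4 groups under every alternative tried, though not its side of the threshold. The late minus early calls among the 6, and the late Wistar calls between materials, depended on the setting; the cause was not tested. The alternatives with only or without the high-detection animals were chosen after seeing the data, and the first leaves 1 early SHRSP animal, assumed to vary like the other groups. The changes with stage or strain of the differences were compared by their counts; of 684 member values under other settings, 57 changed sign and 6 passed the threshold. With both libraries of an animal left unpaired (no replicate block), calls among the 6 fell in all 4 groups, while those over all IDs were 280 in late SHRSP (107 with the block), 296 in early Wistar (82) and 57 in late Wistar animals (45), and 2730 in early SHRSP animals (4742). The block applies to no other comparison. The lowest count of the 6 was 950, and the part of depth or of the number of animals in the calls was not tested.

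The share of all IDs called also changed between settings, so the counts below do not by themselves show a change of the members. For vessels minus neurons in late SHRSP it was 0.883%, against 6.4% with DESeq2 and 9.51% with high-detection animals alone. For neurons, late minus early, Wistar it was 9.31%, against 27.7% with plain totals and 0.0277% with the library set as a term. With DESeq2-type size factors, the count of members called was 0 for vessels minus neurons in late Wistar (otherwise 1). It was 2 for vessels, late minus early, Wistar (otherwise 0). The sign changed for Mt-atp8 0.27 for vessels minus neurons in early SHRSP and Mt-atp8 0.14 for vessels minus neurons in late SHRSP. The sign also changed for Mt-atp8 -0.0077 for neurons, SHRSP minus Wistar, early and Mt-co2 0.12 and Mt-co3 0.11 for vessels, SHRSP minus Wistar, early. With plain totals, the count of members called was 3 for vessels minus neurons in late Wistar (otherwise 1), 5 for neurons, late minus early, SHRSP (otherwise 0), 5 for neurons, late minus early, Wistar (otherwise 1) and 1 for vessels, late minus early, Wistar (otherwise 0). A changed sign was found for Mt-atp8 0.16 for vessels minus neurons in late SHRSP and Mt-co2 0.030 and Mt-co3 0.0044 for vessels, SHRSP minus Wistar, early. The sign also changed for Mt-atp6 0.015 for vessels, SHRSP minus Wistar, late. With plain totals without ENSRNOG00000043866, the count of members called was 3 for vessels minus neurons in late Wistar (otherwise 1) and 1 for vessels, late minus early, Wistar (otherwise 0). Log2 folds of changed sign were Mt-atp8 0.12 for vessels minus neurons in late SHRSP and Mt-atp8 -0.015 for neurons, SHRSP minus Wistar, early. With ENSRNOG00000043866 removed from the table, the count of members called was 2 for vessels minus neurons in late Wistar (otherwise 1) and 1 for vessels, late minus early, Wistar (otherwise 0). With DESeq2, the count of members called was 0 for vessels minus neurons in late SHRSP (otherwise 4) and 0 for vessels minus neurons in late Wistar (otherwise 1). The changed signs were Mt-atp8 0.27 for vessels minus neurons in early SHRSP and Mt-atp8 0.14 for vessels minus neurons in late SHRSP. The sign also changed for Mt-atp8 -0.0079 for neurons, SHRSP minus Wistar, early and Mt-co2 0.12 and Mt-co3 0.11 for vessels, SHRSP minus Wistar, early. With the library set as a term, the count of members called was 2 for vessels minus neurons in late Wistar (otherwise 1) and 0 for neurons, late minus early, Wistar (otherwise 1). The sign changed for Mt-atp8 0.079 for vessels minus neurons in late SHRSP and Mt-co1 0.27, Mt-co3 0.038 and Mt-atp6 0.10 for vessels, late minus early, SHRSP. With no replicate block, the count of members called was 1 for vessels minus neurons in late SHRSP (otherwise 4), 3 for vessels minus neurons in early Wistar (otherwise 5) and 0 for vessels minus neurons in late Wistar (otherwise 1). A changed sign was found for Mt-atp8 0.061 for vessels minus neurons in late SHRSP. With no filter on low counts, the count of members called was 0 for neurons, late minus early, Wistar (otherwise 1) and 3 for vessels, late minus early, Wistar (otherwise 0). Log2 folds of changed sign were Mt-atp8 -0.0026 for neurons, SHRSP minus Wistar, early. With only the groups compared in the fit, the count of members called was 3 for neurons, late minus early, SHRSP (otherwise 0), 0 for neurons, late minus early, Wistar (otherwise 1) and 1 for vessels, late minus early, SHRSP (otherwise 0). Changed signs were those of Mt-atp8 -0.0020 for neurons, SHRSP minus Wistar, early. With the 3 early high-detection animals left out, the count of members called was 2 for the change of the material difference with stage (otherwise 0), 2 for vessels, late minus early, SHRSP (otherwise 0) and 1 for vessels, late minus early, Wistar (otherwise 0). The changed signs were Mt-atp8 -0.0095 for neurons, SHRSP minus Wistar, early. With high-detection animals alone, the count of members called was 0 for vessels minus neurons in early SHRSP (otherwise 5), 2 for vessels minus neurons in early Wistar (otherwise 5), 3 for vessels minus neurons in late Wistar (otherwise 1) and 0 for neurons, late minus early, Wistar (otherwise 1). The sign changed for Mt-atp8 0.075 for vessels minus neurons in early SHRSP and Mt-atp8 0.011 for vessels minus neurons in late SHRSP. The sign also changed for Mt-cyb 0.26, Mt-co1 0.29, Mt-co2 0.27, Mt-co3 0.18 and Mt-atp6 0.11 for neurons, SHRSP minus Wistar, early and Mt-co1 0.041 and Mt-co2 0.10 for neurons, late minus early, Wistar. It changed as well for Mt-co1 0.33, Mt-co2 0.021, Mt-co3 0.18 and Mt-atp6 0.17 for vessels, late minus early, SHRSP.

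Leaving out 1 animal at a time, the count of members called ranged over 3 to 5 for vessels minus neurons in early SHRSP. For the same difference it ranged over 1 to 5 in late SHRSP and 0 to 3 in late Wistar. It ranged over 0 to 2 for the change of the material difference with stage and 0 to 1 for neurons, late minus early, Wistar. For vessels it ranged over 0 to 1 for SHRSP minus Wistar, early and 0 to 2 for late minus early, Wistar. The shares of all IDs called in these fits are given above for some animals only, so these counts are not compared with them. Log2 folds near 0 crossed it within these ranges: Mt-atp8 -0.21 to 0.11 for vessels minus neurons in early SHRSP, Mt-atp8 -0.21 to 0.32 for vessels minus neurons in late SHRSP, Mt-cyb -0.19 to 0.13, Mt-co1 -0.15 to 0.17, Mt-co2 -0.14 to 0.12, Mt-atp8 -0.11 to 0.23 for neurons, SHRSP minus Wistar, early, Mt-cyb -0.35 to 0.097 for neurons, SHRSP minus Wistar, late, Mt-cyb -0.49 to 0.011, Mt-co2 -0.29 to 0.18, Mt-co3 -0.32 to 0.26 for vessels, SHRSP minus Wistar, early, Mt-cyb -0.12 to 0.34, Mt-co1 -0.12 to 0.29, Mt-co2 -0.067 to 0.38, Mt-co3 -0.037 to 0.32, Mt-atp8 -0.0068 to 0.39 for vessels, SHRSP minus Wistar, late.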
